A study of Mus musculus with 6 samples.

Results

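The cholesterol and fatty acid synthesis genes described here are the enzymes that build sterols from acetyl-CoA, the proteins that sense sterols and switch those enzymes on, and the enzymes that make, desaturate and lengthen fatty acids. Members were taken as the rows of the deposited expression table whose gene symbol equals a name on a list of 33. The table held 32 of them among 16547 named genes, since Msmo1 is the current symbol of the gene that the table lists as Sc4mol. They comprised 18 sterol enzymes, 6 regulators and sterol carriers, and 8 fatty acid enzymes. The list was chosen by pathway with the fitted differences of these same 6 libraries, bKO against WT, in view. The differences between genotypes below, and the counts of members highest in a single WT library, are therefore a description and no independent evidence. All 32 members were above 0 in all 6 libraries and were among the 15962 genes tested.

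RNA of isolated pancreatic islets came from C57BL/6 mice aged 11 to 12 weeks. The knockout genotype, βKcnj11 -/- (bKO, 3 libraries), lacks Kcnj11 in beta cells, and the controls, Kcnj11 fl/fl (WT, 3 libraries), carry the same gene flanked by recombination sites. The product of Kcnj11 forms the pore of the potassium channel that ATP closes. Islets were cultured for 2 days before extraction. The sources used here do not give the driver of the deletion, whether the controls carried it, or whether animals were pooled.

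Cells make cholesterol from acetyl-CoA through mevalonate, farnesyl diphosphate, squalene and lanosterol. The genes of this path are switched on by SREBP transcription factors, which sit in the membrane of the endoplasmic reticulum bound to the escort protein Scap, are held there by Insig proteins when sterols are plentiful, and are cut loose when sterols run low. SREBP-2 acts mainly on sterol genes and SREBP-1 mainly on fatty acid genes. In beta cells, membrane cholesterol and fatty acid composition are known to affect channels and the release of insulin granules.

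Kcnj11 was at 3.45, 5.31 and 3.51 FPKM in bKO replicates 1 to 3, and at 19.7, 24.7 and 25.4 FPKM in WT replicates 1 to 3, where FPKM is fragments per kilobase of transcript, scaled to the mapped depth of the library. The mean in bKO islets was 0.176 of that in WT islets, a log2 difference of -2.35 (limma adjusted p = 0.0250 over all genes). The difference lay between -2.52 and -2.26 with each library left out in turn. It no longer passed without WT replicate 2, WT replicate 3, bKO replicate 1 or bKO replicate 3 (limma adjusted p = 0.0771, 0.0960, 0.228 and 0.175). The steps between low FPKM values put the depth at roughly 26400000 to 40300000 fragments in bKO and 23900000 to 27900000 fragments in WT libraries. For the 25 members with a single listed transcript of known length, this gave at least 190 fragments in every library, a counting error of at most 7.25%. The libraries bKO replicate 1 and bKO replicate 3 were nearly the same, with a median absolute log2 difference over the members of 0.040, against 0.11 to 0.48 for the 14 other pairs of libraries. Group medians, counts of calls and some genes are therefore also given with that pair averaged as 1 sample. All other intervals and p-values of single genes treat bKO replicates 1 and 3 as separate samples. The labels do not say whether libraries of a group come from separate animals, so the p-values reflect only how far such samples spread, possibly for technical reasons. Beta cell markers, 10 of 10 measured, summed to 216844 to 293514 FPKM in bKO and 271172 to 359591 FPKM in WT libraries, and each library is a mixture of islet cell types in which fewer cells of a type and less RNA per cell cannot be told apart.

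Stretches of promoter are shown for 5 members because they hold elements through which this pathway is known to be switched on. SREBP binds the sterol regulatory element, often beside a CCAAT box, the site of the factor NF-Y, and it can also bind the E-box CACGTG. Among the 5, Hmgcs1 is the sterol enzyme whose promoter held the long form of the element. Idi1, Lss and Sc4mol are among the sterol enzymes with the largest differences below, where Idi1 ranks 6 of 18 by absolute difference. Pmvk and Dhcr7, which rank 4 and 5 and also have promoter entries, are not shown. Insig1 is the sterol sensor with the largest difference among the regulators. Each sequence is the 150 bases before the annotated start, from RefSeq on GRCm38.p6, 5′ to 3′ on the strand of the gene, with capitals marking TCACNCCA, CCAAT and CACGTG on either strand (CCAAT reads ATTGG on the other).
Hmgcs1, chr13:119690201-119690350, plus strand: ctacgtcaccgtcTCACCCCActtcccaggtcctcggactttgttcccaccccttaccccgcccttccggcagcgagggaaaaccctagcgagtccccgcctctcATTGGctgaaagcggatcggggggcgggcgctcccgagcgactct
Idi1, chr13:8885456-8885605, plus strand: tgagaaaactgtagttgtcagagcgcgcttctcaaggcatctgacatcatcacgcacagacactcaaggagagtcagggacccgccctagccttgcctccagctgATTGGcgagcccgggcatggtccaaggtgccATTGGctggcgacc
Lss, chr10:76531455-76531604, plus strand: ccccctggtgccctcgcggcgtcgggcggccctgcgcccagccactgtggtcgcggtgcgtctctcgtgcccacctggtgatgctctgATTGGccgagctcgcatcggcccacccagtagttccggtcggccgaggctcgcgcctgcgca
Sc4mol (Msmo1), chr8:64733579-64733728, minus strand: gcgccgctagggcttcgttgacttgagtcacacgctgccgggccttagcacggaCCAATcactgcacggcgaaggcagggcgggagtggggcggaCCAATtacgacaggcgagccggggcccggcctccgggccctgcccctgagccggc
Insig1, chr5:28071262-28071411, plus strand: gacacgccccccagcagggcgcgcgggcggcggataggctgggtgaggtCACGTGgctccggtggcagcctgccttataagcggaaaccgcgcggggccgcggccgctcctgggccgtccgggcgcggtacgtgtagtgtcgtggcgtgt

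Promoter entries (250 bases before to 50 after the start) were matched for 25 of the 32 members, and those of Fdps, Fdft1, Sqle, Stard4, Fads1, Scd1 and Scd2 were not. CCAAT, searched on both strands with overlaps allowed, stood in 20 of the 25 members, among them 14 of 15 sterol enzymes, 4 of 5 regulators and 2 of 5 fatty acid enzymes, and in 42.4% of the 12554 tested genes with an entry. The core TCACNCCA stood in Hmgcs1, Sc4mol and Srebf2, and in 4.60% of those tested genes, and the longer TCACCCCAC in Hmgcs1 and in 0.669%. CACGTG stood in Dhcr7, Hsd17b7, Insig1, Sc5d and Scap, and in 11.1%. The GC box GGGCGG stood in 21 of 25 members and in 64.6% of tested genes. Members with several annotated starts have several windows, and counted by window CCAAT stood in 21 of 33 member promoters and in 37.3% of the 15894 promoters of tested genes.

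Across the 6 libraries, most members shared their highest one, which lay inside the WT group. WT replicate 3 held the highest of the 6 FPKM values in 16 of 18 sterol enzymes, 5 of 6 regulators and carriers, and 7 of 8 fatty acid enzymes, 28 of 32 members in all. Over all tested genes that library was the highest for 11.7%. The exceptions were Pmvk and Insig2, highest in WT replicate 1, Hsd17b7, highest in bKO replicate 1, and Acly, highest in bKO replicate 2. At the other end, WT replicate 1 held the lowest value in 15 of 32 members and bKO replicate 2 in 10, against 28.4% and 6.42% of all tested genes.

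**Figure D1:**
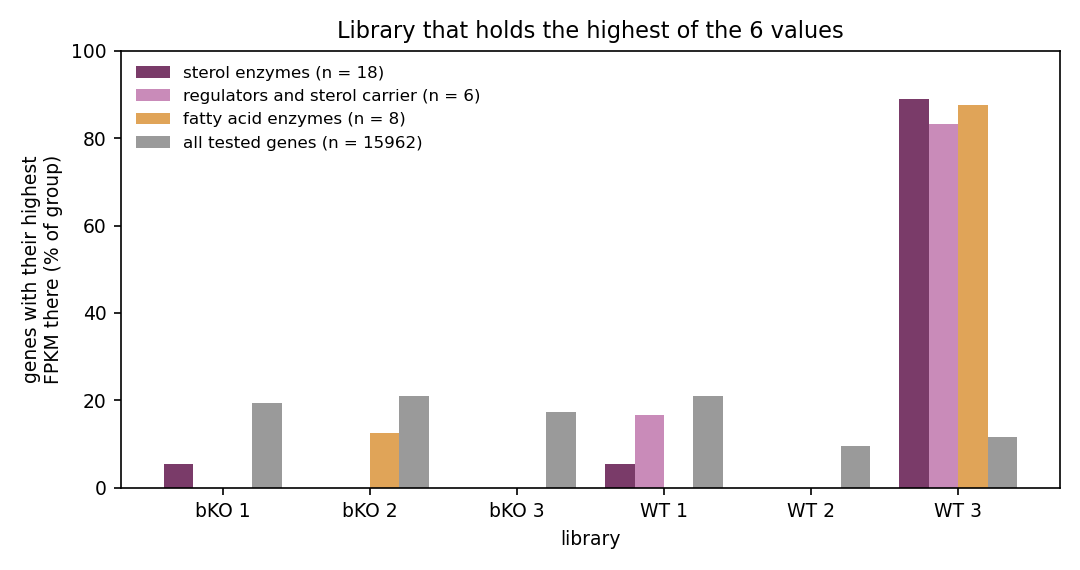
Share of genes (vertical axis, percent of the group) that have their highest deposited FPKM in each of the 6 libraries (horizontal axis), for 18 sterol enzymes, 6 regulators and sterol carriers, 8 fatty acid enzymes and all 15962 tested genes. WT replicate 3 holds 16, 5 and 7 genes of the 3 member groups, against 11.7% of all tested genes.

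The margin was wide for part of the pathway. Genes with a mean of at least 1 FPKM, 12655 in number, were ordered by how far WT replicate 3 stood above the highest of the other 5 libraries on the log2(FPKM + 1) scale. Of the first 100, 18 were members, whereas members made up 0.253% of the genes ordered. The 18 comprised 11 sterol enzymes, 3 regulators and carriers, and 4 fatty acid enzymes. With the same order made for each of the other 5 libraries, 0 members were among the first 100. WT replicate 3 enters the differences that were known when the list was made, so these counts are a description. The level in WT replicate 3 was 1.67 times the mean of the other 5 libraries for Fdps, 1.65 times for Insig1, 1.62 times for Scd2 and 1.61 times for Idi1. It was 1.09 times for Acaca and 1.10 times for Scap. There WT replicate 3 led the next library by only 0.040 and 0.0039 on the log2(FPKM + 1) scale. For Acly and Insig2 the level was 0.966 and 0.841 times, and for Pmvk and Hsd17b7 1.17 and 1.18 times. In these last 4 genes WT replicate 3 was not the highest library.

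**Figure D2:**
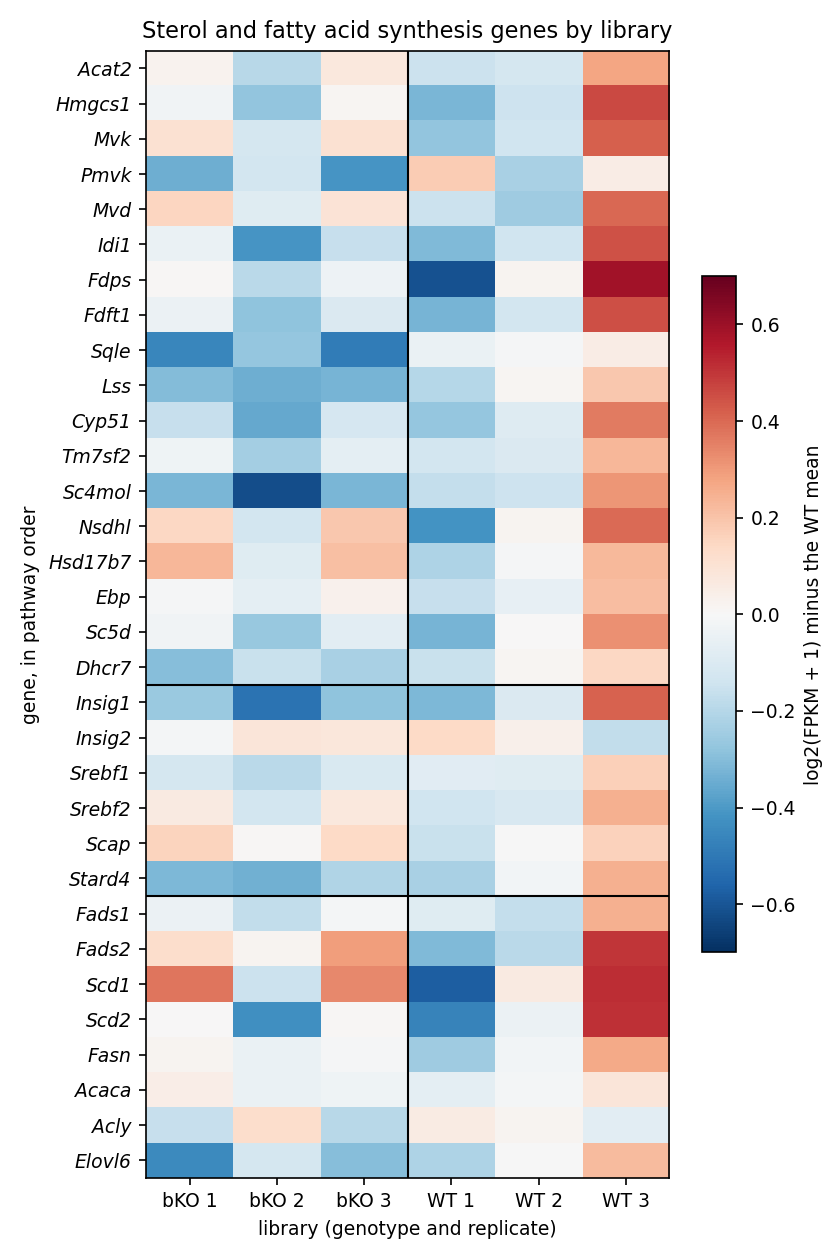
Heat map of the 32 members (rows, in pathway order, sterol enzymes above, regulators and carriers in the middle, fatty acid enzymes below) in 3 bKO and 3 WT libraries (columns), coloured by log2(FPKM + 1) minus the WT mean of the gene. WT replicate 3 is the highest library in 28 of 32 rows, while Sqle, Lss and Sc4mol are below every WT library in all 3 bKO libraries.

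Marker genes of cell types, summed by list, were not highest in WT replicate 3. Its summed FPKM over each of the 10 marker lists was never the highest of the 6 libraries, and it was the lowest for delta and PP cells and for stellate cells and fibroblasts. Acinar markers, 12 of 12 measured, summed to 26396, 11647 and 26055 FPKM in bKO replicates 1, 2 and 3. In WT replicates 1, 2 and 3 they summed to 1328, 16643 and 19961 FPKM. Their sum was lowest in WT replicate 1 and next lowest in bKO replicate 2. WT replicate 1 also held the lowest value of 15 members and bKO replicate 2 that of 10. The part of acinar cells in that was not tested. Endothelial markers, 8 of 8 measured, summed to 204 to 215 FPKM in bKO and 144 to 160 FPKM in WT libraries, without overlap, and their part in the differences between genotypes was not tested. No marker was at 0 in any library. Of 8 adipocyte markers, 3 were measured, with sums of 51.4 to 62.1 FPKM in bKO and 27.6 to 37.8 FPKM in WT libraries, and the other 5, among them Adipoq and Plin1, were not analysed here. The median over the 3 of log2(FPKM + 1) minus the WT mean of the gene overlapped between groups. It was 0.074, 0.031 and 0.25 in bKO replicates 1 to 3 and -0.12, 0.078 and 0.0035 in WT replicates 1 to 3.

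Between genotypes, 0 of the 32 members passed at a limma adjusted p of 0.05 over all genes, where 0.194% of all genes did, 0.132% lower and 0.0626% higher in bKO. At an unadjusted p below 0.05, 9 members were lower and 0 higher in bKO islets, where 9.17% of all genes were lower and 5.05% higher. Adjusted p over all genes ran from 0.0828 for Sqle to 0.992 for Nsdhl (limma). Deposited FPKM of the groups did not overlap in 4 members, Sqle, Lss, Sc4mol and Srebf1, all lower in bKO, where 6.48% of all genes were lower and 15.3% higher without overlap. After quantile normalization Dhcr7, Insig1 and Stard4 joined them, 7 members in all, where 12.6% of all genes were lower and 7.1% higher without overlap. Because the members were listed with this comparison known, nothing is read from these counts.

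The median log2 difference of bKO minus WT was -0.18 over the sterol enzymes, -0.12 over the regulators and carriers and -0.11 over the fatty acid enzymes, and -0.0084 over all tested genes. Negative differences were found in 17 of 18 sterol enzymes, 5 of 6 regulators and carriers and 6 of 8 fatty acid enzymes, against 53.0% of all tested genes. Without quantile normalization, where the median over all genes was 0.048, the counts were 14, 3 and 6. The medians of both enzyme groups rested on WT replicate 3. Without it, the median was -0.021 over the sterol enzymes, with 9 negative and 9 positive, and 0.0047 over the fatty acid enzymes, with 4 negative and 4 positive. The median of the regulators and carriers was -0.12 without it. With bKO replicates 1 and 3 averaged, the 3 medians were -0.22, -0.15 and -0.09.

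**Figure D3:**
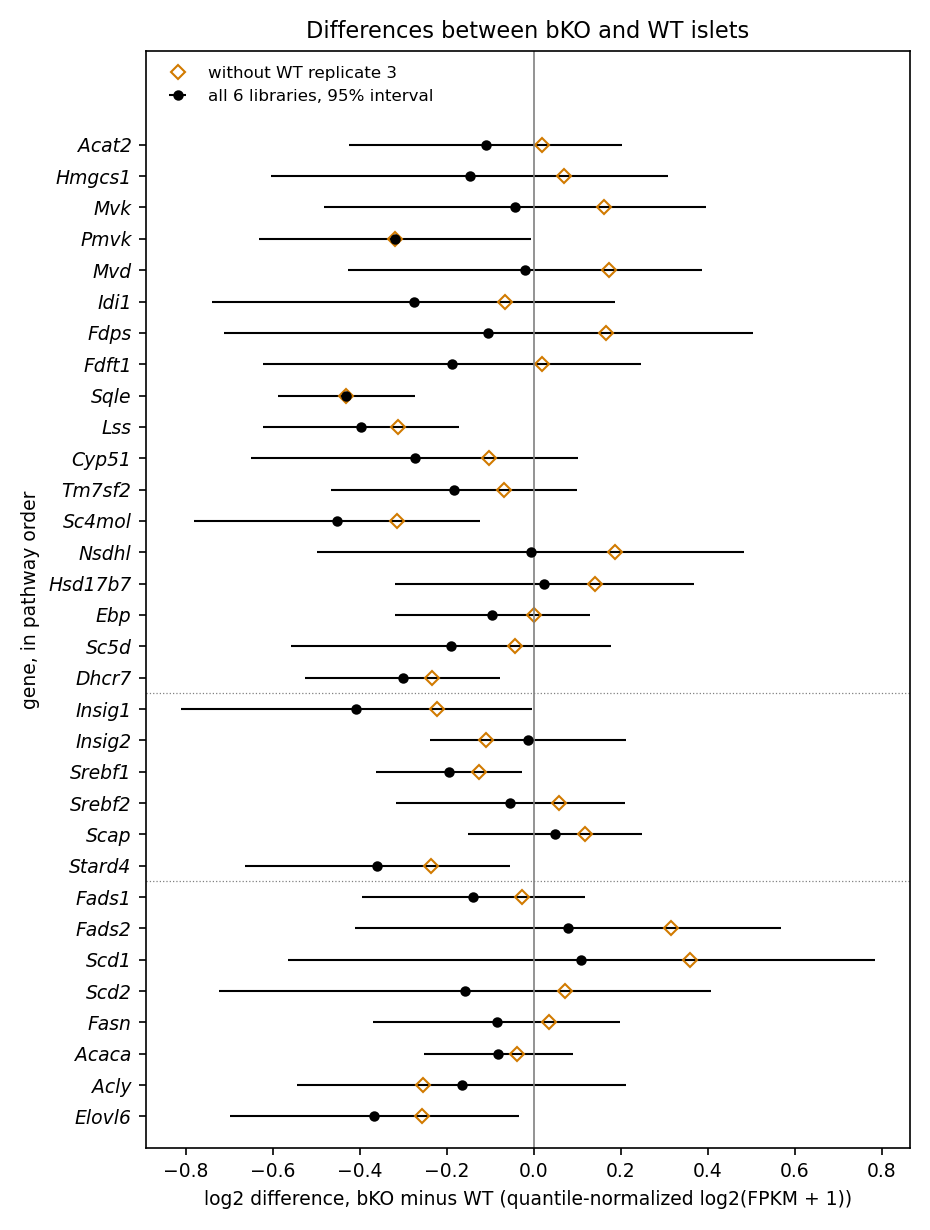
Fitted log2 differences of bKO minus WT (horizontal axis) for the 32 members (vertical axis, in pathway order) with 95% intervals of the limma fit on all 6 libraries (black) and without WT replicate 3 (open diamonds). Sqle stays at -0.43 in both, while most early sterol enzymes move to 0 or above. The intervals are not adjusted for the number of genes.

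The early enzymes carry acetyl-CoA to farnesyl diphosphate. Hmgcs1, the synthase that makes HMG-CoA and the gene with the sterol element shown above, was at 29.6, 24.7 and 30.4 FPKM in bKO and 24.0, 27.1 and 41.9 FPKM in WT replicates 1 to 3. All 3 bKO libraries lay within the range of the WT libraries, which WT replicate 3 set at its upper end. Fdps, which makes farnesyl diphosphate, was at 110.5, 96.1 and 107 FPKM in bKO and 71.5, 111 and 165 FPKM in WT replicates 1 to 3. Its coefficient of variation was 7.17% over the bKO and 40.6% over the WT libraries, the widest among the sterol enzymes in WT. Idi1, the isomerase of isopentenyl diphosphate, was at 16.4, 12.5 and 15.1 FPKM in bKO and 13.6, 15.4 and 23.5 FPKM in WT. Its log2 difference of -0.28 (95% interval -0.74 to 0.19) was -0.065 without WT replicate 3. Hmgcs1 and Fdps fall outside the rule for named genes and were chosen for these values after they were seen.

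Pmvk, the kinase of phosphomevalonate, did not follow the other early enzymes. It was at 53.4, 61.9 and 50.7 FPKM in bKO and 77.0, 57.7 and 70.3 FPKM in WT replicates 1 to 3, so that the groups overlapped through bKO replicate 2 and WT replicate 2. Its log2 difference was -0.32 (95% interval -0.63 to -0.0065) and stayed at -0.32 without WT replicate 3. Acat2, which joins acetyl-CoA units, averaged 9.67 ± 1.03 FPKM in bKO and 9.97 ± 1.90 FPKM in WT islets (SD, n = 3 each). Mvk, mevalonate kinase, averaged 7.33 ± 0.74 and 7.32 ± 2.23 FPKM in bKO and WT islets, and Mvd, mevalonate diphosphate decarboxylase, 9.33 ± 0.86 and 9.13 ± 2.61 FPKM. The signs of the small differences of Acat2, Hmgcs1, Mvk, Mvd and Fdps turned positive without WT replicate 3. Those of Mvk and Mvd also turned without quantile normalization and without bKO replicate 2, and that of Mvd with median of ratios scaling as well.

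Squalene is made, oxidised and closed to lanosterol by Fdft1, Sqle and Lss, and the last 2 held the clearest differences of the list. Sqle, squalene epoxidase and a rate-limiting step after mevalonate, was at 57.6, 65.5 and 56.2 FPKM in bKO replicates 1 to 3 and at 76.8, 78.8 and 82.2 FPKM in WT replicates 1 to 3. Every bKO library was below every WT library, and the WT libraries were close together, WT replicate 3 included. Its mean was 59.7 ± 5.03 FPKM in bKO and 79.3 ± 2.72 FPKM in WT islets (SD, n = 3 each), 0.754 of the WT level. The log2 difference was -0.43 (95% interval -0.59 to -0.27, limma adjusted p = 0.0828), and it lay between -0.50 and -0.39 with each library left out in turn. With bKO replicates 1 and 3 averaged it was -0.40 (limma adjusted p = 0.403).

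Lss, lanosterol synthase, whose promoter above holds a reversed CCAAT box, was at 10.4, 10.1 and 10.2 FPKM in bKO and 11.3, 13.2 and 15.0 FPKM in WT replicates 1 to 3. The bKO libraries were almost level, with a coefficient of variation of 1.35%, and all were below the lowest WT library. Its log2 difference was -0.40 (95% interval -0.62 to -0.17) and -0.31 without WT replicate 3. Fdft1, squalene synthase, was not set apart in this way, with 30.5 ± 2.73 FPKM in bKO and 34.6 ± 10.4 FPKM in WT islets (SD, n = 3 each) and a log2 difference that turned to 0.019 without WT replicate 3. In the GRCm38 annotation an exon of Fdft1 overlaps one of Ctsb on the other strand by 774 bases, so reads there cannot be told apart unless counting used strand, on which the sources used here are silent. Overlaps on the other strand also join Hmgcs1 with Gm48342, the longest of these, Idi1 with Gm48574 (323 bases), Scap with 5830462I19Rik (221 bases), Cyp51 with Akap9 (166 bases), Lss with 4930483K19Rik (150 bases) and Srebf1 with Rai1 (109 bases). On the same strand, where counting by strand would not part the reads, Fdps overlaps Gm43738 by 197 bases, Scd2 overlaps Mir5114 by 61 and Tm7sf2 overlaps Vps51 by 14.

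The later enzymes trim lanosterol to cholesterol. Sc4mol, the methylsterol monooxygenase now named Msmo1, had the largest difference of all members. It was at 43.2, 34.9 and 43.3 FPKM in bKO replicates 1 to 3 and at 48.3, 48.9 and 67.4 FPKM in WT replicates 1 to 3. The groups did not overlap, with bKO replicate 2 the lowest and WT replicate 3 the highest. The mean was 0.737 of the WT level, and the log2 difference was -0.45 (95% interval -0.78 to -0.12), and -0.31 without WT replicate 3. Dhcr7, which makes cholesterol in the last step from 7-dehydrocholesterol, was at 6.53, 7.31 and 6.90 FPKM in bKO and 7.30, 8.33 and 9.22 FPKM in WT. The groups touched at bKO replicate 2 and WT replicate 1, and the log2 difference was -0.30 (95% interval -0.52 to -0.076), or -0.23 without WT replicate 3.

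The other 6 late enzymes had overlapping groups. Cyp51, lanosterol demethylase, averaged 20.03 ± 1.82 FPKM in bKO and 23.7 ± 5.81 FPKM in WT islets (SD, n = 3 each), with a log2 difference of -0.27 that was -0.10 without WT replicate 3. Tm7sf2, a sterol reductase, averaged 6.62 ± 0.58 FPKM in bKO and 7.28 ± 1.20 FPKM in WT, and Sc5d, a sterol desaturase, 16.7 ± 1.51 FPKM in bKO and 18.6 ± 4.33 FPKM in WT. Ebp, the sterol isomerase, averaged 16.9 ± 0.61 FPKM in bKO and 17.2 ± 2.53 FPKM in WT. Nsdhl and Hsd17b7, which act together in removing methyl groups, averaged 10.3 ± 1.30 and 3.42 ± 0.53 FPKM in bKO and 10.04 ± 3.07 and 3.08 ± 0.62 FPKM in WT. Hsd17b7 was the sterol enzyme with a positive fitted difference, 0.025. Its sign turned when WT replicate 1 or either library of the near-identical bKO pair was left out, and when that pair was averaged. Mvk, Mvd and Nsdhl had negative fitted differences although their mean deposited FPKM was slightly higher in bKO. Without quantile normalization their differences were 0.031, 0.055 and 0.069.

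**Figure D4:**
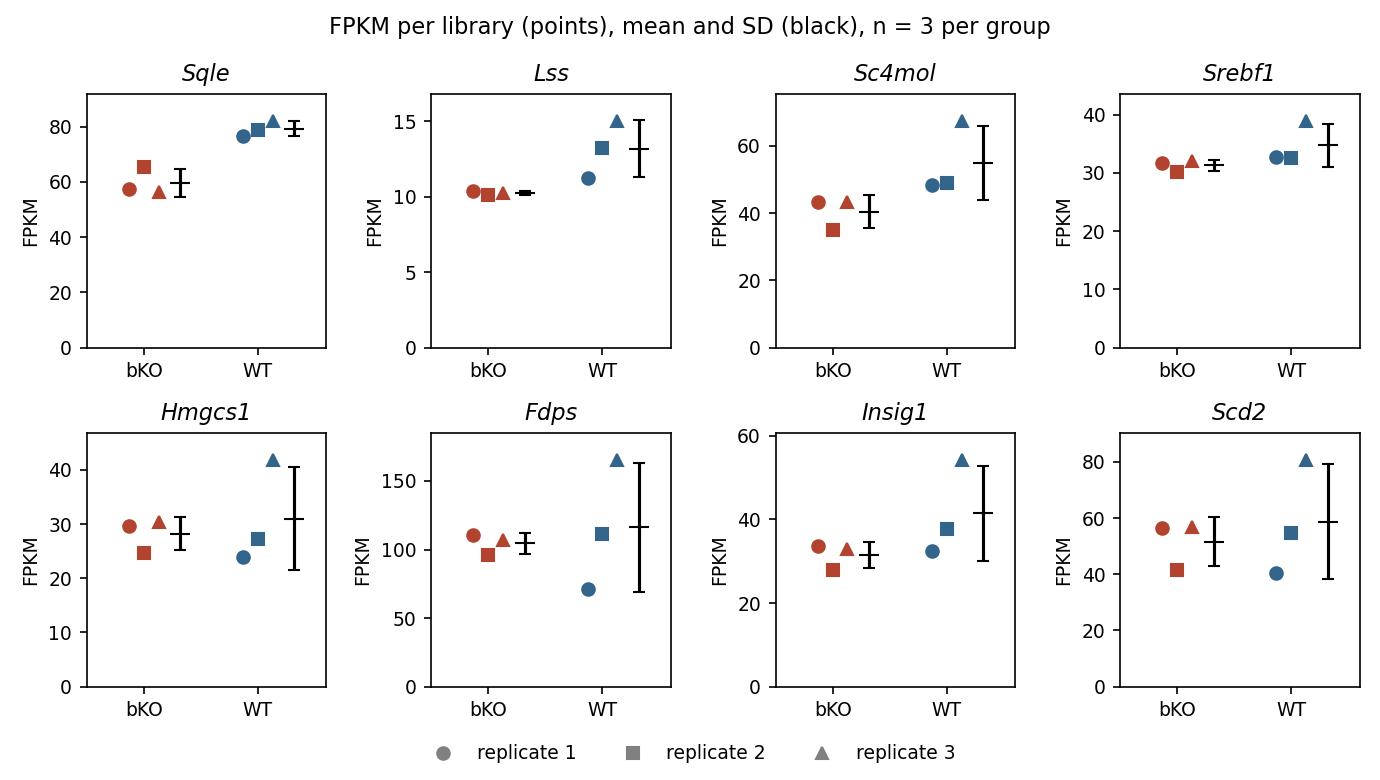
Deposited FPKM (vertical axes, from 0) of 8 members in 3 bKO libraries (left in each panel) and 3 WT libraries (right), with mean and SD in black and replicate numbers by symbol. In the upper row (Sqle, Lss, Sc4mol, Srebf1) the groups do not overlap, and in the lower row (Hmgcs1, Fdps, Insig1, Scd2) WT replicate 3 stands above the other 5 libraries.

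Among the regulators, Insig1, which retains SREBP in the endoplasmic reticulum and is itself an SREBP target, had the largest difference. It was at 33.6, 28.0 and 33.1 FPKM in bKO replicates 1 to 3 and at 32.4, 37.6 and 54.3 FPKM in WT replicates 1 to 3. WT replicate 1 lay among the bKO libraries, and WT replicate 3 far above all. Its log2 difference was -0.41 (95% interval -0.81 to -0.0035) and -0.22 without WT replicate 3. Insig2, its relative that is less tied to SREBP, was at 21.8, 23.5 and 23.4 FPKM in bKO and 24.4, 22.6 and 19.4 FPKM in WT, with WT replicate 3 the lowest of the 6 libraries. Its log2 difference of -0.014 had a 95% interval of -0.24 to 0.21.

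The transcription factor genes differed less. Srebf1 was at 31.7, 30.2 and 32.05 FPKM in bKO and 32.7, 32.5 and 39.0 FPKM in WT replicates 1 to 3, without overlap but with bKO replicate 3 close to WT replicate 2. Its log2 difference was -0.19 (95% interval -0.36 to -0.026) and -0.13 without WT replicate 3. Srebf2 was at 36.0, 31.4 and 36.4 FPKM in bKO and 31.2, 31.9 and 41.3 FPKM in WT, and the bKO libraries lay inside the WT range. Its log2 difference was -0.054 (95% interval -0.32 to 0.21). Scap, the escort of SREBP, was at 29.5, 26.5 and 29.1 FPKM in bKO and 23.5, 26.2 and 29.6 FPKM in WT, with a log2 difference of 0.050 (95% interval -0.15 to 0.25) that was -0.019 without WT replicate 1. Stard4, a carrier that moves cholesterol between membranes, was at 4.64, 4.56 and 5.05 FPKM in bKO and 4.99, 5.93 and 7.33 FPKM in WT. Its groups met at bKO replicate 3 and WT replicate 1, and the log2 difference was -0.36 (95% interval -0.66 to -0.055), or -0.24 without WT replicate 3.

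Acly, which cuts citrate into acetyl-CoA for both arms of the pathway, was the most abundant member per length of transcript. It was at 624, 761 and 610.3 FPKM in bKO and 725, 706 and 662 FPKM in WT replicates 1 to 3, above 99.5% of tested genes by its WT mean. The groups overlapped through bKO replicate 2, the highest of the 6 libraries. The log2 difference was -0.17 (95% interval -0.54 to 0.21), from -0.32 to -0.065 with each library left out in turn. Without quantile normalization the difference was -0.075, and the mean deposited FPKM in bKO was 0.953 of that in WT. Acaca, the carboxylase that commits acetyl-CoA to fatty acids, averaged 6.30 ± 0.25 FPKM in bKO and 6.35 ± 0.405 FPKM in WT islets (SD, n = 3 each). Fasn, fatty acid synthase, averaged 15.2 ± 0.38 FPKM in bKO and 15.5 ± 2.96 FPKM in WT. The log2 difference had a 95% interval of -0.25 to 0.09 for Acaca and -0.37 to 0.20 for Fasn.

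Elovl6, which lengthens palmitate, had the largest difference of the fatty acid arm. It was at 4.75, 6.21 and 5.37 FPKM in bKO replicates 1 to 3 and at 5.74, 6.82 and 8.15 FPKM in WT replicates 1 to 3. Only bKO replicate 2 reached into the WT range, and the log2 difference was -0.37 (95% interval -0.70 to -0.034), or -0.26 without WT replicate 3. Fads1, the delta-5 desaturase, was at 19.99, 18.1 and 20.4 FPKM in bKO and 19.3, 18.3 and 24.7 FPKM in WT. The groups overlapped, and its log2 difference was -0.14, or -0.027 without WT replicate 3. Fads2, the delta-6 desaturase, averaged 16.9 ± 1.73 FPKM in bKO and 15.7 ± 5.38 FPKM in WT islets (SD, n = 3 each), with a log2 difference of 0.080. That value was -0.067 without WT replicate 1, -0.010 without WT replicate 2 and 0.32 without WT replicate 3.

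The stearoyl-CoA desaturases, which make monounsaturated fatty acids, were the most variable members of the fatty acid arm in bKO islets. Scd2 was at 56.5, 41.6 and 56.8 FPKM in bKO replicates 1 to 3 and at 40.5, 54.8 and 80.8 FPKM in WT replicates 1 to 3. The bKO libraries lay within the WT range, and the log2 difference of -0.16 (95% interval -0.72 to 0.41) was 0.072 without WT replicate 3. Scd1 averaged 10.7 ± 2.21 FPKM in bKO and 9.62 ± 3.84 FPKM in WT islets (SD, n = 3 each), with a log2 difference of 0.11 that was -0.18 without WT replicate 1 and 0.36 without WT replicate 3. The 2 genes are close relatives, as are Acat2 and Acat3, and the sources used here do not say how reads shared by such copies were split.

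Neighbouring lipid pathways were taken from 6 lists with 108 genes, all tested, written by function with earlier results known. Of these, 0 passed in either direction over all genes (limma, smallest adjusted p = 0.0844), where 0.194% of all genes did. At an unadjusted p below 0.05, 8 were lower and 8 higher in bKO, where 9.17% of all genes were lower and 5.05% higher. The median log2 difference was -0.0019 over 19 genes of sterol uptake, storage and efflux. For 12 genes listed under the isoprenoid branch it was 0.026, and for 17 genes of SREBP transport, cleavage and degradation -0.018. It was -0.054 over 25 genes of fatty acid supply, elongation and activation, -0.0011 over 18 genes of triglyceride and phospholipid synthesis, and 0.080 over 17 genes of fatty acid oxidation. WT replicate 3 held the highest value in 14 of these 108 genes, by list 2, 0, 2, 7, 3 and 0. In fatty acid oxidation it held the lowest value in 13 of 17 genes, against 20.1% of all tested genes, and the median of that list was 0.039 without it.

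Vldlr, a receptor that takes up lipoproteins, averaged 9.81 ± 0.49 FPKM in bKO and 12.9 ± 0.76 FPKM in WT islets (SD, n = 3 each), with a log2 difference of -0.44 and no overlap (limma adjusted p = 0.0844). Nr1h3, the oxysterol receptor LXR alpha, averaged 4.75 ± 0.17 FPKM in bKO and 6.19 ± 0.40 FPKM in WT, with a log2 difference of -0.40 (limma adjusted p = 0.107). Npc2, which carries cholesterol out of lysosomes, had a log2 difference of -0.28, and Lrp1, a large endocytic receptor, one of 0.48. Stellate cell and fibroblast markers, 8 of 8 measured, summed to 244 to 462 FPKM in bKO and 143 to 359 FPKM in WT libraries, and their part in the Lrp1 difference was not tested. In the SREBP list, Erlin1, a membrane protein of sterol-regulated degradation, was at -0.18, the ubiquitin ligase gene Fbxw7 at -0.19, the ligase gene March6 at -0.079 and Sec24b, of the vesicle coat, at -0.056 on the scale of log2 differences. In the list of the isoprenoid branch, the differences were 0.14 for Icmt, -0.097 for Coq2 and 0.085 for Nus1. That list also held Acat1, an acetyl-CoA acetyltransferase not particular to the branch, at 0.26 (0.12 without WT replicate 3).

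Elovl4, which makes very long fatty acids, averaged 0.98 ± 0.11 FPKM in bKO and 1.95 ± 0.45 FPKM in WT islets (SD, n = 3 each), with a log2 difference of -0.65 and no overlap (limma adjusted p = 0.108). At this low level the pseudocount weighs on the value, which was -1.05 with a pseudocount of 0.1. Mlx, the partner of the glucose sensor ChREBP, averaged 24.9 ± 1.71 FPKM in bKO and 30.1 ± 0.21 FPKM in WT, with a log2 difference of -0.33 (limma adjusted p = 0.108). Mcat and Hsd17b12 had differences of 0.16 and -0.16. Cpt1a, the gate of fatty acid entry into mitochondria, averaged 27.0 ± 1.42 FPKM in bKO and 21.1 ± 0.36 FPKM in WT, with a log2 difference of 0.28 (limma adjusted p = 0.116). Acadvl, Slc25a20 and Acaa2, also of fatty acid oxidation, had differences of 0.15, 0.23 and 0.21, and in these 4 the lowest bKO library was above the highest WT library in deposited FPKM, as in 15.3% of all genes. The 4 were named for the smallest p of their list, so nothing is read from that count. Without WT replicate 3, the difference of Acaa2 was 0.095. In the list of triglyceride and phospholipid synthesis, the differences were -0.21 for Pcyt2, 0.12 for Agpat1, -0.18 for Lpin1 and -0.13 for Pcyt1a.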

How the data were processed

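RNA sequencing of 3 bKO and 3 WT islet samples was analysed. Values are FPKM. The deposited FPKM were made for the authors by a sequencing company, which, per the series' design text, aligned trimmed mouse reads and ran Cufflinks on a fixed annotation. The submitters' processing notes name mm9 as build. Aligner and versions: not given in the sources used here. Although the design text speaks of log transformation and quantile normalization, the deposited FPKM are linear, their medians differ between libraries, and 585 genes are at 0 in at least 1 library. For 4471 genes several transcripts share 1 value. Rows naming no gene, 2 in number, were left out.

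Genes above 0 in all libraries (15962) were transformed as log2(FPKM + 1), which understates changes of low genes, and quantile normalized. Differences of bKO minus WT were fitted with limma 3.58.1 in R 4.3.3 (eBayes with trend, two-sided), with Benjamini-Hochberg adjustment over all tested genes and a threshold of 0.05. Levels, means, SD and group overlap use deposited FPKM. The steps were tested on simulated data.

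The members, lists and alternatives were chosen with earlier results of these data known. The rule for named genes names every member, with all values for the 6 sterol and 4 fatty acid enzymes with the largest absolute differences and a mean of at least 1 FPKM, for members without overlap and for all regulators and carriers. It adds Kcnj11 and, from each neighbouring list, the 4 genes with the smallest p and a mean of at least 1 FPKM. Marker lists covered beta, alpha, delta and PP, acinar, duct, endothelial, immune, stellate, fat and Schwann cells. Depth was estimated from genes with 1 transcript, taking a fragment length of 250 bases and GENCODE M21 transcript lengths. Of low values, 67.3% to 71.6% per library fell within 0.1 of a whole fragment. These depths are estimates and the error given covers counting only. Gene names, exon overlaps and promoters came from GRCm38 tables, used with no conversion of coordinates. The fit was repeated with a block for replicate number, with bKO replicates 1 and 3 averaged, with each library left out in turn and without the eBayes trend. It was also repeated with a pseudocount of 0.1, with median of ratios scaling or no quantile normalization, with genes at 0 kept, and with a minimum mean of 1 FPKM. Tables and plots were made in Python 3.11.15 with pandas 2.3.3, numpy 2.4.6, matplotlib 3.10.9 and scipy 1.17.1.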

Additional observations from a re-analysis of the deposited data

How the results depend on the processing

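Under all 14 alternatives, 0 members and 0 genes of the neighbouring lists passed the threshold, with unadjusted p below 0.05 in 3 to 10 members. The sign was negative under every alternative in 16 members, among them Sqle, Lss, Sc4mol, Pmvk, Dhcr7, Insig1, Srebf1, Stard4, Acly and Elovl6, and turned under at least 1 alternative in the other 16. With each library left out in turn, the median ran from -0.32 to -0.021 over the sterol enzymes, from -0.17 to -0.10 over the regulators and carriers, and from -0.18 to 0.0047 over the fatty acid enzymes, where the ends nearest 0 came without WT replicate 3 for both enzyme groups and without bKO replicate 2 for the regulators. Without quantile normalization the 3 medians were -0.12, -0.069 and -0.044, with 0.048 over all genes, and Sec24b turned to 0.017. Over all genes, 31 were called (67.7% lower). Without quantile normalization 51.3% of the calls were lower. With each library left out the count ran from 0, without bKO replicate 1 or 3, to 50, without WT replicate 1, and was 1, 3 and 9 without WT replicate 3, WT replicate 2 and bKO replicate 2. It was 0 with bKO replicates 1 and 3 averaged (1237 at an unadjusted p below 0.05), the cause of which was not tested. The Kcnj11 difference of -2.35 (limma adjusted p = 0.0250) ran from -2.52 to -2.26 with each library left out (adjusted p 0.0185 to 0.228), and was -2.26 with the pair averaged (limma adjusted p = 0.217). With the replicate number as a block, 0 genes were called (2343 at an unadjusted p below 0.05) and Kcnj11 was at -2.35 (limma adjusted p = 0.0788). Whether libraries of the same number share more than that number is not given. Their deviations from the group means correlated at -0.20, 0.074 and 0.30 for numbers 1, 2 and 3. With bKO replicates 1 and 3 nearly the same, these values cannot decide whether such libraries were paired. Of the bKO libraries, 1 of 3 correlated best with its own number. Medians do not change with the block. Counting error, estimated for 25 of 32 members, was at most 7.25%. For Lss it was 2.90% in the library with the fewest fragments, WT replicate 1, above the 1.35% by which its bKO libraries varied. For Ebp it was 4.30%, also in WT replicate 1. The bKO libraries had more fragments of Ebp, so their spread of 3.63% is not compared with that value.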
